A study of Drosophila melanogaster with 18 samples.

Results

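The 9 genes described here are the Wnt ligands wg, Wnt2, Wnt4, Wnt5, Wnt6 and Wnt10 of Drosophila melanogaster and the Wingless feedback genes fz3, nkd and Notum. They were taken by symbol from a count table of 17529 genes, and all 9 were among the 10834 genes tested. RNA of eye-antennal discs, larval epithelia from which the eye, the antenna and the cuticle of the head develop, was sequenced in 18 libraries, 3 for each of 6 genotypes. Cells of larvae in the last instar were sorted before RNA extraction, and material from several sort days was pooled into the 3 samples of a genotype. The labels do not give the sort gate, the age of the larvae or whether the 3 samples held separate animals, so p-values measure the spread between these pools, which may be partly technical.

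Every genotype, the control included, carried eyFLP, FRT82B and a cell-lethal arm. In this system a recombinase expressed from an eyeless promoter exchanges chromosome arms in the developing disc, and cells left with the cell-lethal arm alone die, so that most of the disc comes to be made of the other arm. That other arm was a plain FRT82B arm in control, scrib1 in scrib, fosKM in fos and CtBP87De-10 in CtBP. The double mutants carried scrib1 with fosKM (scrib fos) or scrib1 with CtBP87De-10 (CtBP scrib). scrib encodes a cell polarity protein whose loss gives overgrown discs, fos (kay in the count table) a transcription factor of the AP-1 family, and CtBP a transcriptional corepressor.

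Wnt proteins are secreted, lipid-modified signals. In the canonical pathway Wingless binds Frizzled receptors with the co-receptor Arrow, which stabilises the β-catenin Armadillo and lets it act with the DNA-binding protein Pangolin on target genes. Several targets feed back on the signal: fz3 encodes a Frizzled-family receptor of low signalling activity, Naked cuticle (nkd) binds Dishevelled and dampens the pathway inside the cell, and Notum is a secreted enzyme that removes the lipid from Wnt proteins. In the eye disc, wg is made at the dorsal and ventral margins, where it keeps retinal differentiation from starting too early and favours head cuticle.

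Totals ran from 22294940 to 35510575 counts per library. The share of ribosomal RNA genes ran from 2.50% to 9.24%, CtBP replicate 1 being highest, and the share of Hsp70 genes was highest in replicate 1 of every genotype. Among the 9 genes, replicate 1 was the highest of the 3 libraries for 8 genes in control and for 9 in scrib, and the lowest for 7 in CtBP. The part of these library differences in the results was not tested. Calls that change without replicate 1 of every genotype are given beside the results. CtBP transcripts were at 809 to 838 CPM (a gene's counts scaled to a common library total) in control, 279 to 295 in CtBP and 332 to 361 in CtBP scrib. Transcripts of kay (84.1 to 134 CPM in control, 91.5 to 111 in fos) and of scrib (463 to 486 in control, 367 to 465 in scrib) were still counted in the mutants, so transcript level does not check those labels. Of 5 markers of other imaginal discs, 3 did not pass the filter on low counts, and the 5 summed to at most 7.67 CPM in any library, against 1344 to 1943 CPM for 6 antennal disc markers over all 18 libraries. Most of that antennal sum came from hth alone, at 999 to 1303 CPM.

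Per kilobase of exon, nkd had the highest level in control discs, 49.4 ± 3.11 CPM per kb (SD, n = 3). Wnt5 (29.3 ± 1.43) and wg (27.9 ± 2.56) were the most abundant ligands. fz3 (19.4 ± 1.20), Wnt6 (15.6 ± 1.22) and Wnt2 (15.2 ± 1.5) were intermediate on the same scale, and Wnt4 (5.52 ± 0.460) and Notum (5.12 ± 0.670) were lower. Wnt10 was close to the limit of the data, with 0.212 ± 0.0626 CPM per kb and 4 to 36 counts per library. The ligand gene wntD, which is no member of the group, had 2 counts in all 18 libraries together and was not tested.

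**Figure D1:**
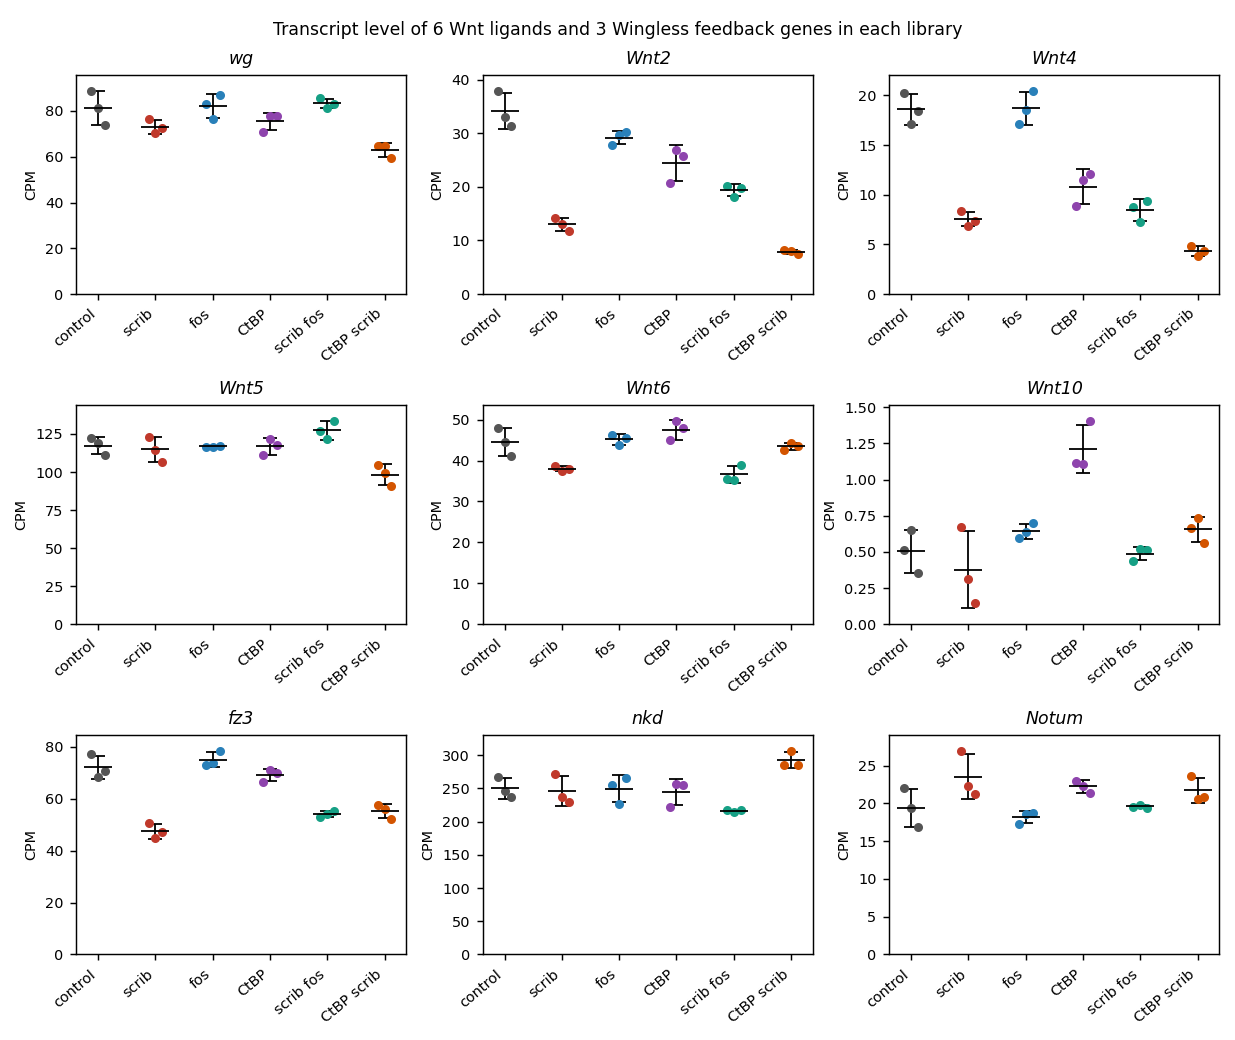
Level of each of the 9 genes in CPM (y axis, from 0) in every library, by genotype (x axis); points are libraries in replicate order and black bars are the mean with its SD (n = 3). Wnt2 and Wnt4 span more than a 4-fold range between genotype means, while wg, Wnt5, Wnt6, nkd and Notum differ by 1.29- to 1.35-fold.

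The range across genotypes set Wnt2, Wnt4 and Wnt10 apart from the other members. The highest genotype mean was 4.32 times the lowest for Wnt4, 4.31 times for Wnt2, 3.20 times for Wnt10 and 1.58 times for fz3. The Wnt10 ratio rests on few counts, with means of 0.378 CPM in scrib and 1.21 CPM in CtBP. Its scrib libraries alone spread from 0.150 to 0.675 CPM. For wg, Wnt5, Wnt6, nkd and Notum this ratio lay between 1.29 and 1.35.

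In scrib discs Wnt2, Wnt4, fz3, Wnt6 and wg fell and Notum rose, while Wnt5, nkd and Wnt10 were not called. That made 5 of 9 members lower and 1 of 9 higher at an adjusted p below 0.05 (edgeR quasi-likelihood test, Benjamini-Hochberg over all tested genes). Among all tested genes 25.7% were called lower and 27.8% higher in this comparison. The median log2 fold change of the 9 members was -0.23, against 0.01 for all tested genes.

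In fos discs no member was called, against 0.738% of all genes lower and 0.258% higher. At an unadjusted p below 0.05 there was 1 member, Wnt2, and DESeq2 called 0. In CtBP discs Wnt2 and Wnt4 fell and Wnt10 rose, so 2 of 9 members were called lower and 1 higher, against 7.46% and 7.00% of all genes.

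In scrib fos discs Wnt2, Wnt4, fz3, Wnt6 and nkd fell against control, 5 of 9 members lower and 0 higher, where 24.5% of all genes were lower and 22.1% higher. Against scrib discs, with fos as the added mutation, 4 of 9 members were higher (Wnt2, fz3, wg and Wnt5) and 2 lower (Notum and nkd), where 17.6% of all genes were higher and 20.2% lower. In CtBP scrib discs Wnt2, Wnt4, wg, Wnt5 and fz3 fell and nkd rose against control, 5 lower and 1 higher, where 28.3% and 31.1% of all genes were lower and higher. Against scrib discs 4 of 9 members fell (Wnt2, Wnt4, wg and Wnt5) and 3 rose (fz3, Wnt6 and nkd), where 9.14% of all genes were lower and 9.57% higher. These comparisons share the control or the scrib libraries with each other and are not independent.

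Whether the effect of the scrib mutation itself differed with the added mutation was tested by the interaction terms. For scrib with fos 1 of 9 members was called, Wnt2, with a positive term, where 10.6% of all genes had a positive and 12.7% a negative call. For scrib with CtBP 1 of 9 was called, fz3, also positive, where 5.43% of all genes were positive and 5.06% negative. Single libraries also decided terms that were not called here. The term of wg with fos was called without control replicate 3 (0.24, adjusted p = 0.0388), that of Wnt5 with CtBP without scrib replicate 3 (-0.26, adjusted p = 0.0406) and that of nkd with CtBP without scrib replicate 1 (0.36, adjusted p = 0.0170).

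**Figure D2:**
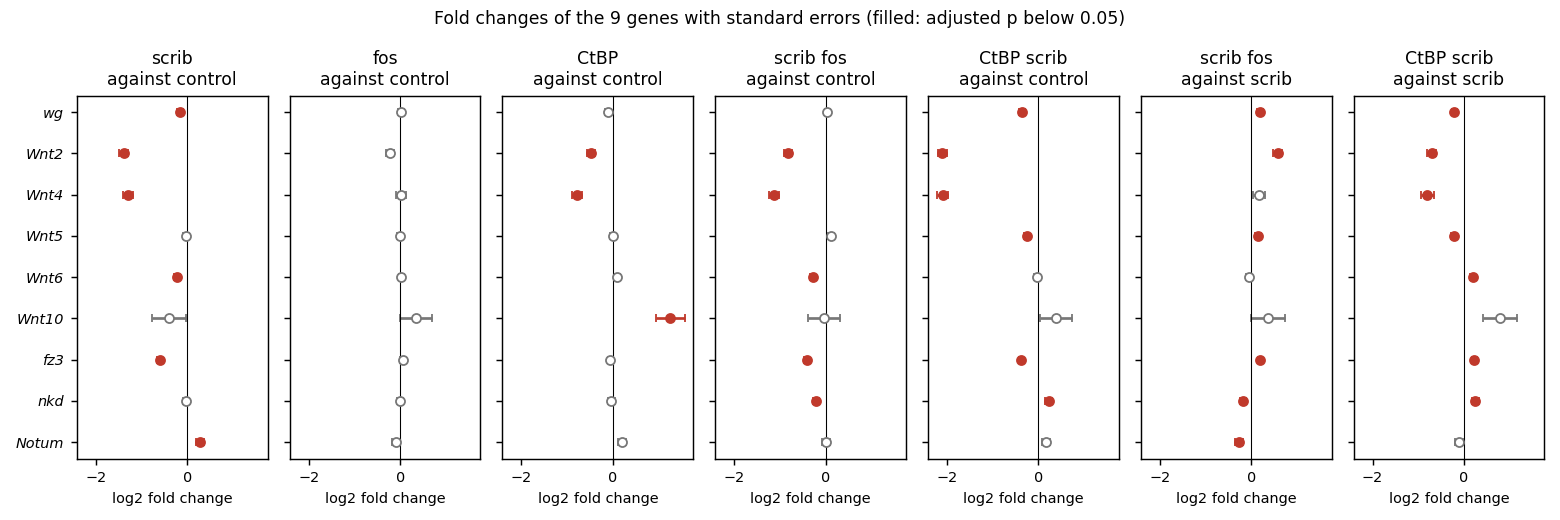
Log2 fold change (x axis) of the 9 genes (rows) in 7 comparisons (panels); bars are standard errors and filled points have an adjusted p below 0.05. Wnt2 and Wnt4 have filled points left of 0 in all comparisons with control except fos, where no member was called (Wnt2 at -0.23, Wnt4 at 0.01).

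Wnt2 (FBgn0004360) lies on arm 2R at 9494166 to 9503188 of dm6, on the plus strand, and encodes a ligand with roles in the tracheal system and the male gonad. Its level was 37.9, 33.1 and 31.4 CPM in the control libraries and 14.1, 13.1 and 11.8 CPM in scrib. It was 20.2, 18.1 and 19.7 CPM in scrib fos, and 8.25, 8.0 and 7.53 CPM in CtBP scrib. The single mutants stood between, with 27.8, 29.6 and 30.2 CPM in fos and 20.6, 26.9 and 25.7 CPM in CtBP. No neighbouring pair in the order CtBP scrib, scrib, scrib fos, CtBP, fos, control overlapped, so the libraries of the 6 genotypes formed 6 separate ranges.

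Wnt2 fell 2.63-fold in scrib, a log2 fold change of -1.39 (SE 0.09, adjusted p = 8.57e-11). It fell 4.30-fold in CtBP scrib (-2.10, SE 0.10, adjusted p = 2.07e-13) and 1.40-fold in CtBP (-0.49, SE 0.09, adjusted p = 0.000465). The CtBP value was -0.29 without replicate 1 of every genotype, still called with an adjusted p of 0.00886. In fos the log2 difference of -0.23 (SE 0.09) did not pass the test, with an adjusted p of 0.389, although all 3 libraries were below control. In that comparison 49 of the 108 called genes lay on arm 2R, as Wnt2 does, or 45.4% against 20.0% of the other tested genes, and the part of this in the Wnt2 value was not tested.

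Loss of fos together with scrib left Wnt2 1.49-fold above its level in scrib alone (log2 fold change 0.58, SE 0.09, adjusted p = 5.28e-05) and below control (-0.82, SE 0.09, adjusted p = 2.44e-07). The interaction term was 0.80 (SE 0.13, adjusted p = 8.20e-05), so the fall of Wnt2 with the scrib mutation was smaller in discs that lacked fos. Loss of CtBP together with scrib lowered Wnt2 a further 1.64-fold from scrib (-0.71, SE 0.10, adjusted p = 3.41e-05). The interaction of scrib with CtBP was -0.23 (SE 0.14, adjusted p = 0.368) and was not called. Without replicate 1 of every genotype this term was -0.38 and was called (adjusted p = 0.0391).

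Wnt4 (FBgn0010453) lies on arm 2L at 7255419 to 7277171, on the minus strand, next to wg, and encodes a ligand that acts in ovary morphogenesis and in the targeting of retinal axons. Its level was 20.2, 17.1 and 18.4 CPM in control and 17.1, 18.6 and 20.5 CPM in fos, 2 groups that overlapped throughout. In scrib it was 8.36, 6.90 and 7.41 CPM, and in scrib fos 8.74, 7.25 and 9.39 CPM. In CtBP it was 8.87, 11.5 and 12.1 CPM, and in CtBP scrib 4.85, 3.83 and 4.33 CPM. The libraries of scrib, CtBP, scrib fos and CtBP scrib were all below every control library, and those of CtBP scrib were below all others.

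Wnt4 fell 2.46-fold in scrib (log2 fold change -1.30, SE 0.12, adjusted p = 1.32e-08), 1.72-fold in CtBP (-0.78, SE 0.11, adjusted p = 4.72e-05) and 2.19-fold in scrib fos (-1.13, SE 0.12, adjusted p = 1.33e-07). It fell 4.28-fold in CtBP scrib (-2.10, SE 0.13, adjusted p = 1.77e-11). scrib fos was not called against scrib, with overlapping libraries and a log2 difference of 0.17 (SE 0.13, adjusted p = 0.319). CtBP scrib was 1.74-fold below scrib (-0.80, SE 0.14, adjusted p = 0.000245). Both interaction terms of Wnt4 were smaller than their standard errors (SE 0.17 with fos and SE 0.18 with CtBP), and neither was called. The difference between the 2 genes in these terms was not tested.

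Markers of the retina and of other cells also differed between these genotypes. The summed level of 5 photoreceptor markers (elav, gl, sev, ro and pros) was 740 to 785 CPM in control, 762 to 788 in fos, 578 to 707 in CtBP, 163 to 204 in scrib fos, 116 to 135 in scrib and 63.4 to 88.6 in CtBP scrib. All 5 were called lower in scrib, scrib fos and CtBP scrib, 0 of 5 were called in CtBP or fos, and none was at 0. Among all tested genes 25.7% were called lower in scrib, 24.5% in scrib fos, 28.3% in CtBP scrib, 7.46% in CtBP and 0.738% in fos. In the same order 27.8%, 22.1%, 31.1%, 7.00% and 0.258% were called higher. The sum of 6 eye disc markers was 1372 to 1451 CPM in control, 1308 to 1343 in CtBP, 766 to 919 in scrib, 1426 to 1531 in scrib fos and 312 to 409 in CtBP scrib. Of these 6 markers 4 were lower and 1 higher in scrib, 6 were lower in CtBP scrib, 1 was lower in CtBP, and 1 was lower and 3 were higher in scrib fos. Antennal disc markers were lower for 5 of 6 in scrib (median log2 fold change -0.78) and in CtBP scrib (-0.86), for 4 of 6 in scrib fos (-0.31) and for 1 of 6 in CtBP (0.02). Neuroblast markers were lower for 3 of 4 in scrib (-1.39), scrib fos (-1.16) and CtBP scrib (-1.95), and in CtBP 1 was higher and 1 lower. In bulk RNA fewer cells of a type and less RNA per cell cannot be told apart, and the part of these markers in the Wnt2 and Wnt4 values was not tested.

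Levels were compared with those of 4873 named protein-coding genes with a mean of at least 10 CPM. Among these, the genes whose log2 levels were most like Wnt2 over the 18 libraries were Skel (Pearson r = 0.987), lz (0.987) and E(spl)m7-HLH (0.984). For Wnt4 they were LManII (0.966), Skel (0.963) and amon (0.961). Libraries of a genotype share its level, so these r values describe the pattern over 6 genotypes. For wg the genes were mas (0.945), ck (0.936) and tw (0.935), and for fz3 M7BP (0.969), comt (0.961) and Ac13E (0.958). The other 5 members had looser matches, led by Cad74A for Wnt5 (0.928), Rfx for Wnt6 (0.911), Csk for nkd (0.895), scrib for Wnt10 (0.892) and casp for Notum (0.830).

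wg (FBgn0284084, arm 2L, 7307159 to 7316265, plus strand) encodes Wingless, the main ligand of the canonical pathway in discs. Its level was 88.8, 81.3 and 73.9 CPM in control, 76.4, 70.4 and 72.6 CPM in scrib and 83.0, 76.4 and 87.0 CPM in fos. It was 71.0, 77.6 and 77.6 CPM in CtBP, 85.5, 81.4 and 83.2 CPM in scrib fos, and 64.9, 64.9 and 59.6 CPM in CtBP scrib. Only the CtBP scrib libraries were below every library of control and of every other genotype.

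In CtBP scrib wg fell 1.29-fold against control (log2 fold change -0.37, SE 0.06, adjusted p = 3.90e-05) and 1.16-fold against scrib (-0.21, SE 0.06, adjusted p = 0.0203). The latter was not called without CtBP scrib replicate 3 (adjusted p = 0.0953) or scrib replicate 1 (0.0697). Against scrib, wg was 1.14-fold higher in scrib fos (0.19, SE 0.06, adjusted p = 0.0200), with no overlap. That call was lost without scrib fos replicate 1 (adjusted p = 0.0632) or scrib replicate 2 (0.0653).

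The call of wg in scrib, a 1.11-fold fall, rested on overlapping libraries (log2 fold change -0.15, SE 0.06, adjusted p = 0.0427). It was lost under 13 of 26 other settings, with adjusted p from 0.00887 to 0.328 over all of them. Among the libraries compared it was lost without control replicate 1 (-0.08, adjusted p = 0.328), control replicate 2 (0.0990), scrib replicate 2 (0.173) or scrib replicate 3 (0.108). It was lost as well without replicate 1 of every genotype (-0.12, adjusted p = 0.147) and without any 1 of 8 libraries of the other genotypes (replicates 2 and 3 of CtBP, CtBP scrib and scrib fos, and replicates 1 and 3 of fos).

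Wnt6 (FBgn0031902, arm 2L, 7333714 to 7352542, plus strand) is a neighbour of wg with a similar expression pattern in discs. It was at 47.98, 44.5 and 41.0 CPM in control, 38.7, 37.5 and 38.0 CPM in scrib and 35.6, 35.3 and 39.0 CPM in scrib fos. It was at 42.6, 44.3 and 43.6 CPM in CtBP scrib, within the control range. The scrib and scrib fos libraries were below every control library. In CtBP it was at 44.9 to 49.7 CPM and in fos at 43.8 to 46.2 CPM, both overlapping control.

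Wnt6 fell 1.17-fold in scrib (log2 fold change -0.23, SE 0.06, adjusted p = 0.00189) and 1.21-fold in scrib fos (-0.28, SE 0.06, adjusted p = 0.000355), with no library overlapping control. CtBP scrib was 1.14-fold above scrib (0.19, SE 0.06, adjusted p = 0.0186). That last call was lost without CtBP scrib replicate 2 (adjusted p = 0.0728), CtBP scrib replicate 3 (0.0562) or scrib replicate 2 (0.0645), and the interaction of scrib with CtBP was not called (0.10, SE 0.08, adjusted p = 0.539).

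Wnt5 (FBgn0010194, arm X, 18501401 to 18505405, minus strand) encodes a ligand of the Ryk-family receptor Derailed that guides axons. Its levels were 122, 119 and 111 CPM in control and 123, 114 and 107 CPM in scrib. They were 127, 122 and 134 CPM in scrib fos and 104, 99.4 and 90.8 CPM in CtBP scrib, while fos (116 to 117 CPM) and CtBP (111 to 122 CPM) overlapped control. CtBP scrib was again the genotype below all others.

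In CtBP scrib Wnt5 fell 1.19-fold against control (log2 fold change -0.26, SE 0.06, adjusted p = 0.000793) and 1.17-fold against scrib (-0.22, SE 0.06, adjusted p = 0.00847). The second of these was not called without CtBP scrib replicate 3 (adjusted p = 0.0525). Wnt5 was 1.11-fold higher in scrib fos than in scrib (0.15, SE 0.06, adjusted p = 0.0493), with overlapping libraries. That call was lost with only the groups compared in the fit (adjusted p = 0.103), and without replicate 1 (0.0786) or 3 (0.132) of scrib fos or replicate 2 (0.0754) or 3 (0.170) of scrib. Against control, scrib fos was not called (0.12, SE 0.06, adjusted p = 0.104), but it was under 6 of 26 other settings, with adjusted p from 0.0344 to 0.207 over all of them. These were the fit with no filter on low counts and the fits without control replicate 1, CtBP scrib replicate 3, scrib fos replicate 2, scrib replicate 1 or scrib replicate 3.

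Wnt10 (FBgn0031903, arm 2L, 7363379 to 7377528, plus strand) was the least abundant ligand, and its single call, over all 18 libraries, was a rise. It was at 0.512, 0.649 and 0.352 CPM in control and 1.12, 1.11 and 1.40 CPM in CtBP, with no overlap. In CtBP scrib it was at 0.666, 0.734 and 0.565 CPM, overlapping control, and in fos at 0.596 to 0.698 CPM. The scrib libraries spread from 0.150 to 0.675 CPM, and those of scrib fos from 0.437 to 0.518 CPM.

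The rise in CtBP was 2.38-fold (log2 fold change 1.25, SE 0.32, adjusted p = 0.00949). Without control replicate 3, the control library with the lowest level, the value was 1.05 with an adjusted p of 0.0560. The scrib values of Wnt10 turned on scrib replicate 1. In scrib against control the log2 difference was -0.41 (SE 0.38, adjusted p = 0.388), and without that library it was -1.11 and called (adjusted p = 0.0239). CtBP scrib against scrib went from 0.79 (adjusted p = 0.159) to 1.498 (adjusted p = 0.00876) without it, and scrib fos against scrib was called at 1.079 (adjusted p = 0.0379). Without replicate 1 of every genotype CtBP scrib against scrib was also called, at 1.497 (adjusted p = 0.0407). Counts of Wnt10 are few, and its exons share 79 bases with asRNA:CR44063 on the other strand. No source used here states the strand setting of the counting, and there reads of the 2 genes cannot be told apart.

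wg, Wnt4, Wnt6 and Wnt10 lie in 1 cluster of 122.11 kb on arm 2L, with Wnt4 on the minus strand and the other three on the plus strand. In scrib Wnt4 (-1.30), Wnt6 (-0.23) and wg (-0.15) of this cluster fell and Wnt10 was not called. The wg call was lost under 13 of 26 other settings. In scrib fos Wnt4 and Wnt6 fell, and wg and Wnt10 were not called. The 4 ligands did not share a direction in CtBP, where Wnt4 fell, Wnt10 rose and wg and Wnt6 were not called. That call of Wnt10 was lost without control replicate 3 (adjusted p = 0.0560). In CtBP scrib Wnt4 and wg fell, and Wnt6 and Wnt10 were not called. Between the outermost Wnt genes lie 3 other annotated genes. Of these CG31909 and asRNA:CR44063 did not pass the filter, and lncRNA:CR45304 reached at most 0.543 CPM. CG31909 lies inside Wnt4 on the other strand and shares 0 exon bases with it.

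**Figure D3:**
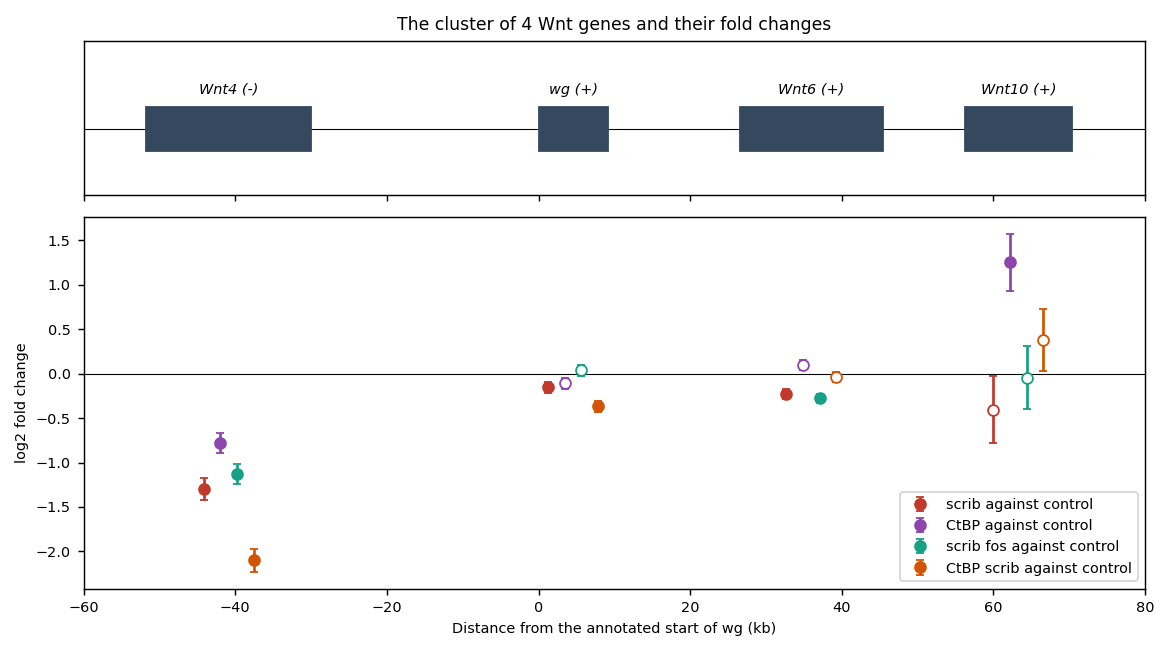
Top, the 4 Wnt genes of the cluster as boxes from annotated start to end, with strand in brackets, by distance from the start of wg in kb; bottom, log2 fold change against control with its standard error, placed about each gene's middle with a small offset per comparison (filled: adjusted p below 0.05). Wnt4 is below 0 in all 4 comparisons, wg and Wnt6 stay within 0.37 of 0, and Wnt10 is above 0 with a filled point in CtBP.

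The ligands together were fewer in the double mutant with CtBP than in any other genotype. Summed over the 6 ligands, the level per kilobase was 93.7 ± 6.92 CPM per kb in control (SD, n = 3), 92.0 ± 2.70 in fos and 86.3 ± 5.43 in CtBP. It was 84.5 ± 3.19 in scrib fos, 75.3 ± 3.76 in scrib and 66.5 ± 2.87 in CtBP scrib. The scrib libraries (72.4 to 79.5) and those of CtBP scrib (63.2 to 68.6) overlapped neither control (87.0 to 101) nor each other.

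The make-up of the sum shifted as well. Wnt2 made up 16.2% ± 0.487 of it in control, 7.70% ± 0.366 in scrib, 10.2% ± 0.330 in scrib fos and 5.32% ± 0.0410 in CtBP scrib. Wnt4 went from 5.90% ± 0.419 in control to 2.98% ± 0.182 in scrib and 1.94% ± 0.224 in CtBP scrib. wg accounted for 29.7% ± 0.566 in control and 33.3% ± 0.918 in scrib, and Wnt5 for 31.3% ± 0.939 and 38.1% ± 1.05. These shares sum to a fixed total, and the levels of wg and Wnt5 themselves were not higher in scrib than in control.

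**Figure D4:**
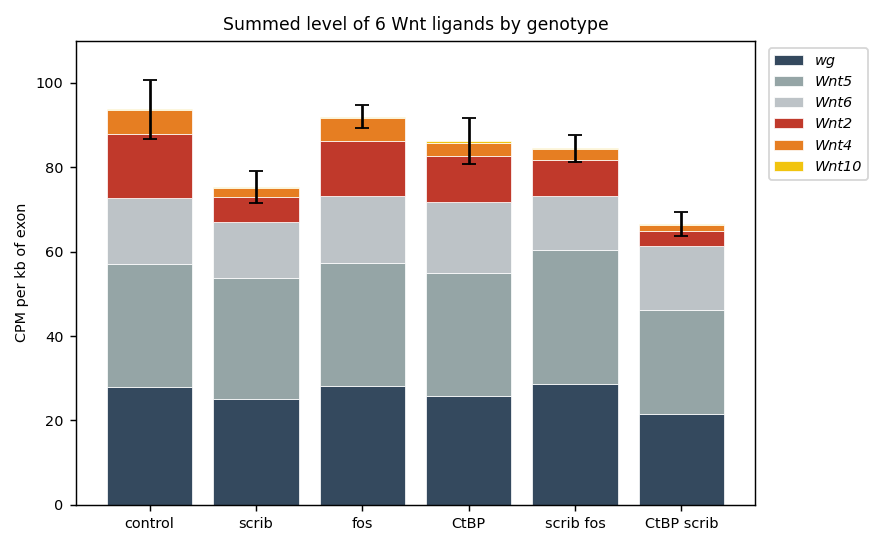
Mean level of each Wnt ligand per kilobase of exon (y axis, CPM per kb, stacked from 0) by genotype (x axis); the error bar is the SD of the sum over 3 libraries. The sum is 93.7 CPM per kb in control and 66.5 in CtBP scrib, with Wnt2 and Wnt4 the segments that shrink most in proportion.

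Of the feedback genes, fz3 (FBgn0027343, arm X, 769945 to 784222, plus strand) had the clearest change. It was at 77.2, 68.6 and 70.8 CPM in control and at 50.6, 44.8 and 47.1 CPM in scrib. It was at 53.2, 54.2 and 55.2 CPM in scrib fos and at 57.6, 56.2 and 52.2 CPM in CtBP scrib, with the single mutants fos (73.0 to 78.4 CPM) and CtBP (66.7 to 71.2 CPM) overlapping control. All genotypes with scrib1 lay below all genotypes without it, and scrib lay below both double mutants.

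fz3 fell 1.52-fold in scrib (log2 fold change -0.60, SE 0.05, adjusted p = 7.74e-09), 1.33-fold in scrib fos (-0.41, SE 0.05, adjusted p = 2.68e-06) and 1.30-fold in CtBP scrib (-0.38, SE 0.05, adjusted p = 3.42e-06). Against scrib it was 1.14-fold higher in scrib fos (0.19, SE 0.05, adjusted p = 0.00811) and 1.17-fold higher in CtBP scrib (0.22, SE 0.05, adjusted p = 0.00520). The interaction of scrib with CtBP was 0.28 (SE 0.08, adjusted p = 0.0182). That term was not called without CtBP scrib replicate 1 (0.25, adjusted p = 0.0516) or without replicate 1 of every genotype (0.22, adjusted p = 0.0821). The interaction with fos, 0.13 (SE 0.08, adjusted p = 0.225), was not called.

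**Figure D5:**
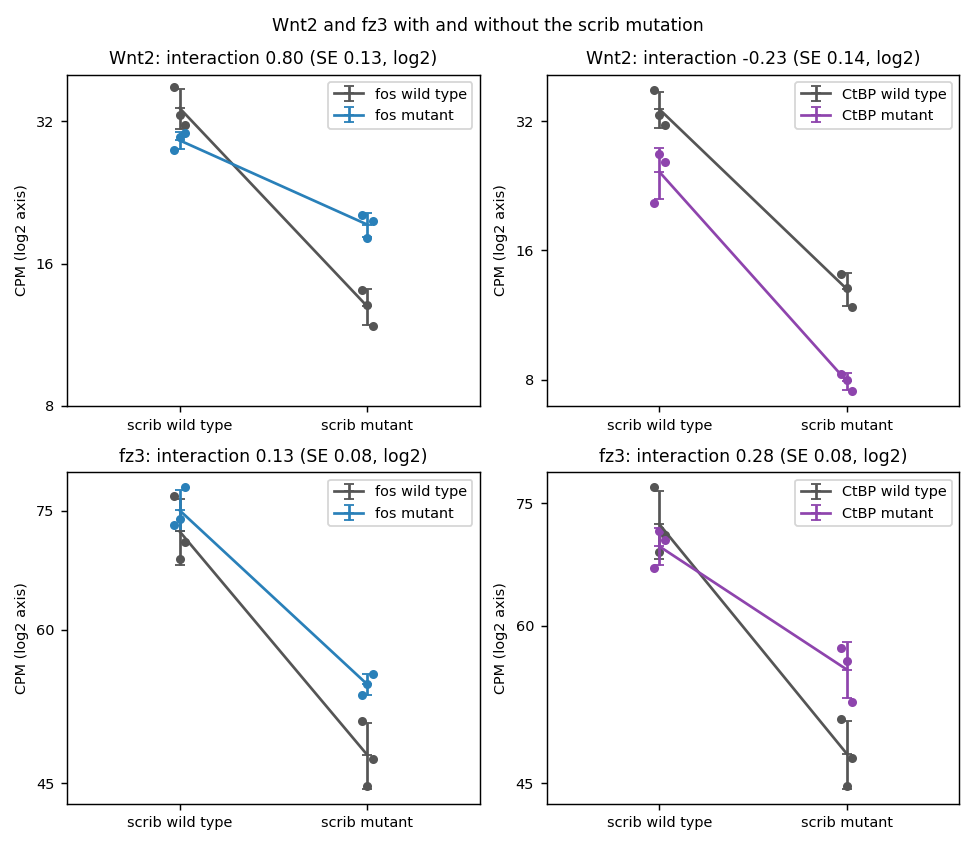
Levels of Wnt2 (top) and fz3 (bottom) in CPM on a log2 axis, without and with the scrib mutation (x axis), in discs wild type (grey) or mutant (colour) for fos (left) or CtBP (right); points are libraries, lines join means and bars are SD (n = 3). The lines of Wnt2 are not parallel with fos (interaction 0.80) and those of fz3 are not parallel with CtBP (0.28), the 2 terms with an adjusted p below 0.05.

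nkd (FBgn0002945, arm 3L, 19003741 to 19045449, minus strand) was at 267, 247 and 237 CPM in control and at 271, 237 and 229 CPM in scrib. It was at 217, 214 and 217 CPM in scrib fos and at 285, 306 and 285 CPM in CtBP scrib. fos (227 to 266 CPM) and CtBP (222 to 257 CPM) overlapped control. The double mutants thus lay on opposite sides of scrib, scrib fos below all its libraries and CtBP scrib above them.

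In CtBP scrib nkd rose 1.17-fold against control (log2 fold change 0.22, SE 0.07, adjusted p = 0.0105), while Wnt2, Wnt4, wg and Wnt5 fell there. Against scrib it was 1.19-fold higher in CtBP scrib (0.25, SE 0.07, adjusted p = 0.0166). It was no longer called without CtBP scrib replicate 2 (adjusted p = 0.0777), scrib replicate 2 (0.0680) or scrib replicate 3 (0.0780). In scrib fos nkd fell 1.16-fold against control (-0.21, SE 0.07, adjusted p = 0.0199), a call lost without control replicate 1 (0.137) or replicate 2 (0.0685) or 3 (0.0569) of scrib fos.

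The fall of nkd in scrib fos against scrib was 1.14-fold (-0.19, SE 0.07, adjusted p = 0.0455) and was lost under 20 of 26 other settings. These included the DESeq2 test (adjusted p = 0.0959) and the fit without scrib replicate 1 (-0.11, adjusted p = 0.252) and without replicate 1 of every genotype (-0.11, adjusted p = 0.188). Its libraries did not overlap those of scrib.

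Notum (FBgn0044028, arm 3L, 16023480 to 16032752, plus strand) was at 21.99, 19.4 and 16.9 CPM in control, 26.9, 22.4 and 21.3 CPM in scrib and 19.5, 19.9 and 19.4 CPM in scrib fos. It was at 17.3 to 18.7 CPM in fos, 21.4 to 23.0 CPM in CtBP and 20.6 to 23.7 CPM in CtBP scrib. The groups overlapped control throughout, and the scrib fos libraries lay below those of scrib.

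Notum rose 1.21-fold in scrib (log2 fold change 0.28, SE 0.09, adjusted p = 0.0129), the only member called higher there. The call was lost with only the groups compared in the fit (adjusted p = 0.0831), without control replicate 3 (0.0672) and without scrib replicate 1 (0.18, adjusted p = 0.0788). In scrib fos it was 1.20-fold below scrib (-0.26, SE 0.09, adjusted p = 0.0231). That call was lost with DESeq2 (adjusted p = 0.0565), without scrib replicate 1 (-0.15, adjusted p = 0.177), without replicate 1 (0.0528) or 3 (0.0578) of scrib fos and without replicate 1 of every genotype (-0.15, adjusted p = 0.114).

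In CtBP (0.20, SE 0.09, adjusted p = 0.164) and CtBP scrib (0.16, SE 0.09, adjusted p = 0.126) Notum was not called against control. Without control replicate 1 it was called in both, at 0.29 (adjusted p = 0.0414) and 0.27 (adjusted p = 0.0150), and likewise without replicate 1 of every genotype, at 0.27 (adjusted p = 0.0224) and 0.19 (adjusted p = 0.0352). Its interaction of scrib with CtBP, -0.31 (SE 0.13, adjusted p = 0.139), was called without control replicate 1 (-0.40, adjusted p = 0.0338) or replicate 1 of every genotype (-0.34, adjusted p = 0.0460).

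In scrib fz3 fell, Notum rose and nkd was not called. In scrib fos fz3 and nkd fell and Notum was not called, and in CtBP scrib fz3 fell, nkd rose and Notum was not called.

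Other genes of the pathway were counted in fixed lists by role. Of 8 genes for Wnt secretion and transport, 3 were higher and 2 lower in scrib, with a list median log2 fold change of 0.06, where 27.8% of all tested genes were higher and 25.7% lower. Those called higher were dally (0.93, SE 0.05, adjusted p = 1.4e-11) and dlp (0.67, SE 0.06, adjusted p = 1.7e-08), glypicans that hold Wingless at the cell surface, and wls (0.20, SE 0.04, adjusted p = 0.00026), which carries Wnt proteins to the surface. Of the 2 called lower, Swim had the smaller p (-0.56, SE 0.11, adjusted p = 0.00026). dally was at 316 to 327 CPM in control and 560 to 671 CPM in scrib, and it was also higher in CtBP (0.40, SE 0.05, adjusted p = 2.3e-05), scrib fos (0.77, SE 0.05, adjusted p = 6.8e-10) and CtBP scrib (1.10, SE 0.05, adjusted p = 6.0e-13). These are the 4 genotypes in which Wnt2 and Wnt4 were called lower.

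Of 9 receptors and co-receptors, 2 were higher and 6 lower in scrib (median -0.44), and the counts were the same in CtBP scrib (median -0.67). The shares of all genes called higher and lower were 27.8% and 25.7% in scrib and 31.1% and 28.3% in CtBP scrib. fz2, a receptor that Wingless signalling represses in wing discs, was at 589 to 623 CPM in control and rose in scrib (0.77, SE 0.06, adjusted p = 7.8e-10) and CtBP scrib (0.97, SE 0.06, adjusted p = 1.3e-11). Ror, a Wnt-binding receptor tyrosine kinase, fell from 22.6 to 25.4 CPM in control to 4.84 to 5.71 CPM in scrib (-2.15, SE 0.12, adjusted p = 1.2e-11). fz, which acts in the canonical and planar polarity pathways, fell in scrib (-0.69, SE 0.07, adjusted p = 1.9e-07) and in CtBP scrib (-1.10, SE 0.08, adjusted p = 1.7e-10).

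With fos also lost, 5 of the 9 receptors were higher and 2 lower than in scrib (median 0.41), against 17.6% and 20.2% of all genes. fz2 was lower (-0.50, SE 0.06, adjusted p = 7.4e-07), and the co-receptor gene arr (0.49, SE 0.07, adjusted p = 1.2e-05), the Wnt5 receptor gene drl (0.41, SE 0.06, adjusted p = 3.2e-05) and Ror (0.77, SE 0.13, adjusted p = 7.4e-05) were higher. For arr the scrib fos libraries, at 275 to 288 CPM, overlapped control at 278 to 281 CPM, while scrib was at 180 to 229 CPM. In CtBP scrib against scrib 1 receptor was higher and 4 were lower (median -0.05), against 9.57% and 9.14% of all genes, and 3 were called without CtBP scrib replicate 3 or without scrib replicate 3.

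Of 10 cytoplasmic transducers 1 was higher and 4 were lower in scrib (median -0.08), beside 27.8% and 25.7% of all genes, the largest being Tnks (-0.41, SE 0.07, adjusted p = 2.2e-05), which targets Axin for degradation, and sgg (0.29, SE 0.05, adjusted p = 2.5e-05), the kinase that marks Armadillo for degradation. Without replicate 2 or 3 of control, or replicate 2 or 3 of scrib, 3 of them were called. Of 7 nuclear effectors 1 was higher and 0 lower in scrib, beside the same shares of all genes. It was hyx (0.12, SE 0.05, adjusted p = 0.029). The call of hyx was lost with the DESeq2 test, without control replicate 1 and without scrib replicate 3, and 2 effectors were called without scrib replicate 1.

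Of 12 other Wingless targets and regulators in discs, 5 were higher and 4 lower in scrib (median 0.07), beside 27.8% and 25.7% of all genes. Among these 12, Dll and hth were also counted as antennal disc markers above. Doc1, which encodes a T-box factor, rose from 15.5 to 17.7 CPM in control to 34.2 to 36.8 CPM in scrib (1.09, SE 0.07, adjusted p = 2.7e-11). The sensory organ gene sens (-1.10, SE 0.08, adjusted p = 6.9e-10), the appendage gene Dll (-0.70, SE 0.07, adjusted p = 4.3e-08) and the proneural gene ac (-0.87, SE 0.09, adjusted p = 9.3e-08) fell. Doc1 was lower than in scrib in both double mutants, by -0.91 (SE 0.07, adjusted p = 7.7e-10) in scrib fos and -0.97 (SE 0.07, adjusted p = 1.3e-09) in CtBP scrib, and Doc3 by -0.56 (SE 0.07, adjusted p = 1.4e-06) and -0.83 (SE 0.07, adjusted p = 2.9e-08). In all, 2 of the 12 were higher and 6 lower in scrib fos than in scrib, and 1 higher and 7 lower in CtBP scrib than in scrib. The shares of all genes were 17.6% and 20.2% in the first of these comparisons and 9.57% and 9.14% in the second.

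Of 11 genes that act on or against wg in the eye disc, 3 were higher and 6 lower in scrib (median -0.34), beside 27.8% and 25.7% of all genes. Among these 11, so, eya, dac and ey were also counted as eye disc markers above. The retinal determination genes eya (-1.72, SE 0.07, adjusted p = 3.6e-14) and dac (-1.27, SE 0.10, adjusted p = 1.9e-08) fell. upd1, a JAK/STAT ligand whose pathway represses wg in the early eye disc, rose from 2.78 to 5.57 CPM in control to 36.7 to 40.9 CPM in scrib (3.29, SE 0.16, adjusted p = 2.2e-11), and dpp rose as well (0.65, SE 0.06, adjusted p = 8.3e-09). Against scrib, 7 of the 11 were higher and 3 lower in scrib fos (median 0.63; all genes 17.6% and 20.2%), with upd1 at 2.26 to 3.76 CPM. In CtBP scrib 3 were higher and 8 lower than in scrib (median -0.95; all genes 9.57% and 9.14%), among them eya (-1.04, SE 0.07, adjusted p = 5.7e-10) and so (-0.95, SE 0.08, adjusted p = 4.5e-08).

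Blood cell markers, a source of other cells in a disc sample, summed to 152 to 240 CPM in control, 68.5 to 91.8 in scrib, 44.6 to 52.8 in CtBP scrib and 7.29 to 9.17 in scrib fos. Their part in the ligand values was not tested.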

How the data were processed

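The authors deposited raw read counts per gene, and the submitters' processing notes name dm6 as the build and Subread, featureCounts and edgeR as tools. No source used here states versions, annotation or strand setting. The authors' counts were matched by identifier to the Ensembl annotation of that assembly (17425 of 17529 genes), which gave symbols, positions and exon lengths.

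Of these genes 10834 passed filterByExpr with genotypes as groups and 6695 did not. Counts were scaled by TMM and fitted in edgeR 4.0.16 (R 4.3.3) with glmQLFit (robust) over all 18 libraries, with 12 residual degrees of freedom. Contrasts were tested 2-sided with glmQLFTest, adjusted by Benjamini-Hochberg over all tested genes and called at an adjusted p below 0.05. A standard error is the log2 fold change over the square root of F. CPM uses TMM-scaled library sizes. Libraries of 1 genotype differed by more than counting noise (chi-square over its degrees of freedom 4.20 to 127), so none was merged.

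All 9 members are named in every comparison. From the other lists up to 4 called genes with the smallest p per list and comparison could be named, and not all of these are. Likeness is Pearson's r of log2 CPM (prior count 2) over 18 libraries. Its search left out noncoding genes, genes named only by an annotation number and genes with a colon in the symbol. Members and lists were chosen with earlier results of these data known. Alternatives were DESeq2 1.42.0, its size factors, no filter, 5 CPM in 3 libraries, only the compared groups, a replicate block, no ribosomal RNA genes, and leaving out libraries. Intervals from counting are not given, since libraries rather than reads set the error. No sequence is shown.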

Additional observations from a re-analysis of the deposited data

Results flagged for a closer look

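The effect of the scrib mutation on Wnt2 differed between discs with and without fos, by the test of the difference itself: the interaction was 0.80 on the log2 scale (SE 0.13, adjusted p = 8.20e-05, edgeR). It was 0.72 to 0.87 over 26 other settings and was called in all of them. The effect of the scrib mutation on fz3 differed between discs with and without CtBP, with an interaction of 0.28 (SE 0.08, adjusted p = 0.0182, edgeR), and 0.22 to 0.33 over 26 other settings, 2 of which lost the call.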

How the results depend on the processing

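Each of the 61 member differences at least as large as its standard error or called was recomputed under 26 alternatives, and 20 further differences, smaller and not called, were given no direction, a rule chosen after the values were seen. Of 1581 values 1495 kept their direction and their side of the threshold, 63 lost the call, 19 gained it and 4 changed sign. The changes of sign were in differences that were not called: Notum in fos without replicate 1 of every genotype (0.043), and from -0.18 to 0.0062 with single libraries left out, and, without replicate 1 of every genotype, wg in CtBP (0.0013) and fz3 in CtBP (0.021). Leaving out single libraries moved the number of members called from 6 to between 2 and 6 for scrib fos against scrib, from 7 to between 4 and 7 for CtBP scrib against scrib, from 1 to between 1 and 2 for the interaction of scrib with fos, and from 1 to between 0 and 2 for that with CtBP. Without replicate 1 of every genotype that last number was 2, beside 1036 of all 10876 tested genes. In that setting 8 members were called for CtBP scrib against scrib, beside 1875 of 10876 genes. Over all genes, in the order above, fits without single libraries called 3535 to 4236, 1627 to 2269, 2106 to 2620 and 939 to 1282. Each of these fits tested 11000 to 11030 genes. The cause of these changes was not tested. For fos against control 108 genes in all were called, and 71 without fos replicate 1 and 57 without fos replicate 2. Replicate numbers were not taken to pair the samples, since the labels do not say whether a number marks a shared pool. Deviations of same-numbered libraries correlated at -0.159 to 0.205 (median 0.052, and 0.126 among replicate 1 libraries). Those of differently numbered libraries correlated at -0.226 to 0.207 (median -0.026). Of 18 libraries 10 correlated best with their own number. Whether replicate 1 libraries share an effect was not tested. A replicate block changed 1 of 61 member results, nkd in scrib fos against scrib (-0.18, adjusted p = 0.0583). Of 1404 counts over lists 1331 stayed within 1.5 times, and 57 of the 73 that did not had a library left out. Counts per library were fewest for Wnt10 (4 to 36) and next for Wnt4 (92 to 592), so depth limits these most.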
